A study of Homo sapiens with 24 samples.

Results

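The genes of sterol and fatty acid synthesis form the set described here: 31 genes, taken by symbol from the 58735 genes of the deposited count table. They are 7 genes of the mevalonate and isoprenoid steps, 11 of squalene and sterol ring synthesis, 6 regulators or sterol carriers, and 7 of fatty acid synthesis, desaturation and elongation. All 31 were found, and 30 passed the filter on low counts and were tested. ELOVL6, which elongates fatty acids, was not tested, with 0.423 CPM in its highest library (CPM is the count scaled to a common library size).

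Messenger RNA was measured in 24 libraries from MOLM-13 and THP-1, both established human acute myeloid leukemia lines with the KMT2A-MLLT3 (MLL-AF9) fusion, grown in medium with fetal bovine serum. Each line received vehicle (PBS and DMSO), L-ascorbic acid (LAA, vitamin C) at 250 µM, olaparib, an inhibitor of poly-ADP-ribose polymerases, at 1 µM, or LAA and olaparib together at those doses. Treatment lasted 72 h, and each of the 8 groups has 3 libraries. Each line is a single cell line, the labels do not say that replicates were separate cultures, and p-values therefore measure only the spread between these samples. In such bulk RNA, fewer cells of a type and less RNA per cell cannot be told apart.

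Cells make cholesterol from acetyl-CoA through mevalonate, isoprenoids and squalene, and make fatty acids from the same precursor. The transcription factors SREBP-1 and SREBP-2, the products of SREBF1 and SREBF2, are held in the endoplasmic reticulum by SCAP and the INSIG proteins while sterols are plentiful. When sterols are low they travel to the Golgi, are cut free and switch on genes of both routes, INSIG1 and SREBF2 among them. Many promoters of these genes pair a sterol response element with a CCAAT box, which the factor NF-Y binds.

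The stretch before the transcription start is shown for 7 members whose levels are compared below: 5 that fell with the combination in both lines (SREBF2, DHCR7, MVK, MSMO1 and INSIG1) and the 2 that were called in neither line for the combination against vehicle (PMVK and SCAP). Sequences are from RefSeq on GRCh38.p14, 150 bases each, 5′ to 3′ on the gene's strand, ending 1 base before the RefSeq start. That start can differ from the start in the deposited gene model. The stretches of DHCR7, MVK, PMVK and SCAP lie wholly inside the deposited gene models, and those of SREBF2, MSMO1 and INSIG1 partly. Capitals mark matches on either strand to TCACNCCAC, the sterol response element, to CCAAT, the box that NF-Y binds, or to the E-box, spelled CACGTG.
SREBF2: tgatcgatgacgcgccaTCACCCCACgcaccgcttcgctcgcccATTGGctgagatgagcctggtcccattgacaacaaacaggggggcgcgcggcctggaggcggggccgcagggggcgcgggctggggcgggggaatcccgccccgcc
DHCR7: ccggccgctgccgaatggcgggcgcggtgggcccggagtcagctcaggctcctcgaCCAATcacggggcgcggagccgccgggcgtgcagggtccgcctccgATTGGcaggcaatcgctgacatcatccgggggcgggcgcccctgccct
MVK: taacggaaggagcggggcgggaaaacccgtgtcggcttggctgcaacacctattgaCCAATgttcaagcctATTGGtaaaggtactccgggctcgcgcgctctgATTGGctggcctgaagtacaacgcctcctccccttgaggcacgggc
MSMO1: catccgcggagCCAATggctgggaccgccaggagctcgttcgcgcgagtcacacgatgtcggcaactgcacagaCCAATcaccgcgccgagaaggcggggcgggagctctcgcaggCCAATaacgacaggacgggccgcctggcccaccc
INSIG1: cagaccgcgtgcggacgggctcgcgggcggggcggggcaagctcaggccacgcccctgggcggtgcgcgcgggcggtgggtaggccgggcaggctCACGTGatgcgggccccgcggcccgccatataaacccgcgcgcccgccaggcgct
PMVK: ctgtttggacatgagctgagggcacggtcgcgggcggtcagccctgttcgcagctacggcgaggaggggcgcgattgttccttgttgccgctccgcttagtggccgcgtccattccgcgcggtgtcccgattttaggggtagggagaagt
SCAP: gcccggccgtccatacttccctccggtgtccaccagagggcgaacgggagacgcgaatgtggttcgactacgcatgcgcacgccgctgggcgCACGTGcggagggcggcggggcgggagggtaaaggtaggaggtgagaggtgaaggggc

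The SREBF2 stretch (chr22:41832955-41833104, plus strand) holds a sterol response element starting 133 bases upstream and a CCAAT box starting 106 bases upstream. That of DHCR7 (chr11:71448394-71448543, minus strand) holds 2 CCAAT boxes, and those of MVK (chr12:109573644-109573793, plus strand) and MSMO1 (chr4:165327519-165327668, plus strand) hold 3 each. DHCR7 also has another RefSeq start, not printed, whose longer window (chr11:71448994-71449293) held no match. In INSIG1 (chr7:155297728-155297877, plus strand) and SCAP (chr3:47475942-47476091, minus strand) an E-box was the only match, and PMVK (chr1:154936720-154936869, minus strand) had none. INSIG1 has a CCAAT box just upstream of its printed stretch, whereas SCAP and PMVK have none in the longer window either. Over the longer window of 250 bases before to 50 after the start, 27 of the 31 members had an entry in the promoter table, all but FASN, FDFT1, SQLE and ACAT2. A CCAAT box lay in 20 of the 27 (74.1%), against 39.7% of all 27305 genes in the table, a gene being counted if any of its windows holds the motif. The sterol response element as spelled lay in 1 of 27 (3.7%), SREBF2, against 1.39% of genes, and the E-box in 4 of 27 (14.8%; INSIG1, LSS, SC5D and SCAP), against 8.77%. No spelled motif overlaps another in the printed stretches. The printed genes are a picked part of the set, and other members do not follow their split. SREBF1 and FADS1 fell with the combination in both lines, and their longer windows held no match. NSDHL, not called for the combination against vehicle in THP-1, had 5 CCAAT boxes. A link between motifs and response was not tested. A match describes letters only and shows no binding.

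Total counts per library were 18666259 to 25265870, and 15186 to 15960 genes had at least 10 counts. The myeloid markers CD33 (36.4 to 50.8 CPM) and SPI1 (292 to 407 CPM) were present in every library, while CD14 stayed at 1.03 to 14.2 CPM, MPO at 4.52 to 9.21 CPM, and the T cell genes CD3D, CD3E and CD2 at or under 0.162 CPM. The megakaryocyte, epithelial and fibroblast markers PF4, KRT19 and COL3A1 were at 0 in all 24. Other markers of those and of lymphoid cells were detected in every library, ITGA2B at 0.299 to 2.11 CPM, COL1A1 at 0.824 to 3.42 CPM and NKG7 at 4.17 to 20.8 CPM, and CDH1 reached 0.871 CPM. Mitochondrially encoded genes took 6.81 to 7.49% of counts in THP-1 vehicle and 7.77 to 9.47% in THP-1 combination libraries, and 6.67 to 6.74% and 8.73 to 9.31% in those labelled MOLM-13. With LAA alone they took 6.94 to 7.7% in THP-1 and 7.01 to 8.14% in MOLM-13. With olaparib alone they took 6.63 to 7.12% in THP-1 and 8.22 to 11% in MOLM-13, the highest of the series. Their part in the results below was not tested.

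The libraries labelled MOLM-13 stood close to THP-1. Across 17425 genes, the vehicle groups of the 2 labels correlated at r = 0.9952 (a description across genes), above THP-1 vehicle against THP-1 combination (r = 0.9886), and 765 of 17089 genes (4.48%) were called between the vehicle groups. A set of 15 genes nearly silent in THP-1, chosen from these data by an earlier look at them, summed to 30.8 to 32.6 CPM in vehicle libraries labelled MOLM-13. The sum was 17.7 to 20.1 CPM with olaparib, 4.8 to 5.79 CPM with LAA and 3.2 to 5.23 CPM with the combination, against 0.0937 to 0.672 CPM in all THP-1 libraries. A change of cell make-up and a change of expression cannot be told apart in these libraries, and the 2 lines are not independent evidence of each other. All 3 LAA and all 3 combination libraries are low, so no version without them exists. The combination against LAA compares the groups whose levels of this set lie nearest.

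**Figure D1:**
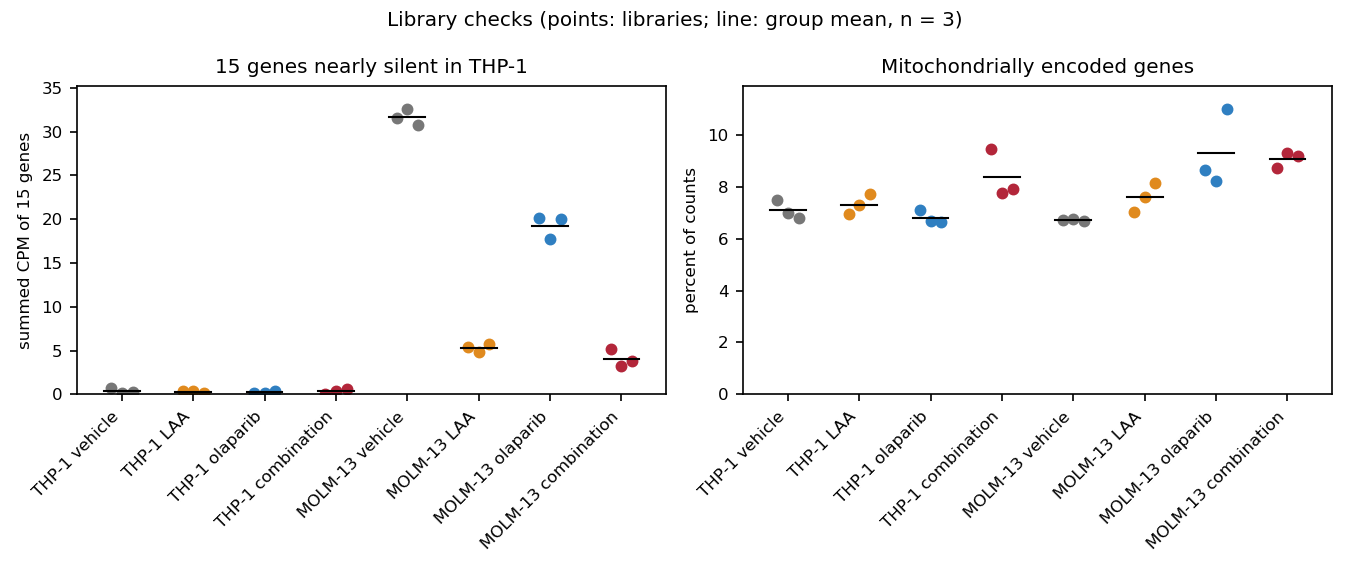
Summed CPM of the 15 genes nearly silent in THP-1 (left) and the percent of counts from mitochondrially encoded genes (right) in each library, by line label and treatment; lines mark means of 3 libraries. The gene set falls from 30.8 to 32.6 CPM in vehicle libraries labelled MOLM-13 to 3.2 to 5.23 CPM with the combination.

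In vehicle-treated cells the members spanned a wide range of levels per length (FPKM, the count divided by gene length and library size). In THP-1 vehicle the highest was SCD, the desaturase that makes oleate, at 179 ± 5.11 FPKM (SD, n = 3), followed by fatty acid synthase FASN at 146 ± 2.72, INSIG1 at 99.1 ± 3.75, the citrate lyase ACLY at 82.9 ± 3.6 and squalene synthase FDFT1 at 60.9 ± 0.753 FPKM. The libraries of these 5 did not overlap with those of the next gene in the order. The lower end held INSIG2 at 3.29 ± 0.287, the sterol demethylase CYP51A1 at 1.29 ± 0.336 and ELOVL6 at 0.0192 ± 0.011 FPKM. The CYP51A1 value is uncertain, as another gene model on its strand overlaps it. Of 30 neighbouring pairs in the order, 12 overlapped between libraries and so do not differ beyond their spread, for example SREBF1 with SQLE.

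Between the vehicle groups of the 2 labels no member was called (edgeR's quasi-likelihood test, Benjamini-Hochberg adjusted over all genes, threshold 0.05; background 1.99% lower and 2.49% higher). The differences, THP-1 minus MOLM-13, ran from -0.226 to 0.164 on the log2 scale with a median of -0.0342. At an unadjusted p under 0.05 there were 2 members, and DESeq2 called 0. MVD, a decarboxylase of the mevalonate route, was called lower in THP-1 when MOLM-13 vehicle replicate 2 was left out (edgeR adjusted p = 0.0255).

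The combination lowered almost the whole set in THP-1. Of 30 tested members 27 fell, 0 rose and 3 were not called, where 13.5% of all genes tested were called lower. The median log2 fold change was -0.916, against -0.012 over all genes tested. The libraries of 28 members lay wholly below vehicle, a pattern seen in 19.5% of all genes tested. Per library, the median shift of the 30 members from the vehicle mean was -0.862, -0.868 and -0.918, so no single combination library carried the fall. All 27 calls held in each of the 13 other settings tried, which include leaving out each library.

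**Figure D2:**
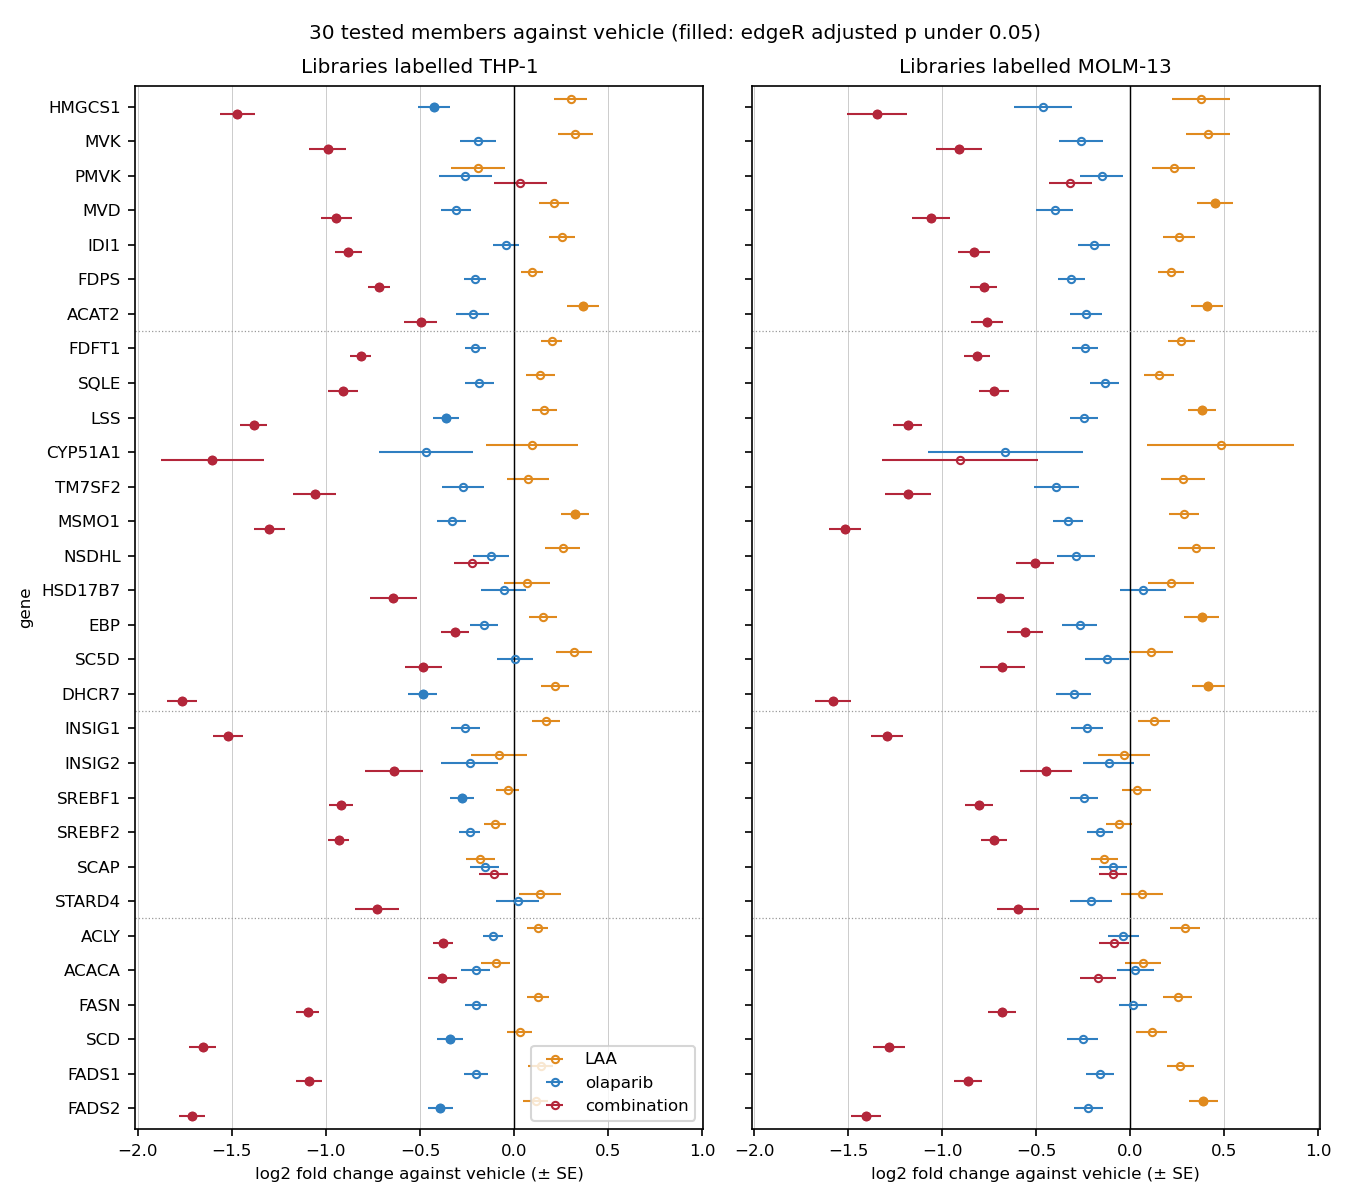
Log2 fold change against vehicle ± SE of the 30 tested members (rows, in the order of their roles, dotted lines between roles) for LAA, olaparib and the combination, in THP-1 (left) and in the libraries labelled MOLM-13 (right); filled points have an edgeR adjusted p under 0.05. The combination is filled for 27 members on the left and 25 on the right, LAA points lie mostly above 0 and olaparib points mostly below it.

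Among the mevalonate and isoprenoid genes 6 of 7 fell in THP-1. HMGCS1, which makes HMG-CoA, was at 125, 108 and 132 CPM in the vehicle libraries and at 46.7, 45.3 and 40.6 CPM in the combination libraries. The groups did not overlap, and the fall was 2.77-fold (log2 -1.47 ± 0.09; edgeR adjusted p = 8.51e-13). The mevalonate kinase gene MVK (1.99-fold), MVD (1.93-fold), the isomerase IDI1 (1.84-fold), farnesyl diphosphate synthase FDPS (1.64-fold) and the acetoacetyl-CoA thiolase ACAT2 (1.41-fold) fell by less. PMVK, the kinase between MVK and MVD, stood apart: 46.5, 66.9 and 53.7 CPM in vehicle overlapped with 51.2, 57.1 and 63.5 CPM in the combination (log2 0.03 ± 0.14; edgeR adjusted p = 0.895).

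Of the squalene and sterol ring genes 10 of 11 fell. DHCR7 (chr11:71428193-71452868), a reductase of the last steps to cholesterol, had the largest fold of the set. It went from 71, 68.5 and 66.9 CPM in vehicle to 20.5, 20.9 and 19.6 CPM in the combination, 3.40-fold lower (log2 -1.77 ± 0.08; edgeR adjusted p = 1.4e-15). The methyl sterol oxidase MSMO1 went from 74.7, 67.1 and 73.6 to 31.6, 29.4 and 26.8 CPM, 2.46-fold lower. In both genes every combination library lay far below every vehicle library. Lanosterol synthase LSS fell 2.61-fold, the sterol reductase TM7SF2 2.09-fold, squalene epoxidase SQLE 1.88-fold, FDFT1 1.76-fold, HSD17B7 1.56-fold, SC5D 1.40-fold and the isomerase EBP 1.24-fold. CYP51A1 fell 3.04-fold from a low counted level, 4.65 ± 1.21 to 1.53 ± 0.584 CPM (SD, n = 3). Another gene model on its strand overlaps CYP51A1, so this level is uncertain. NSDHL, a dehydrogenase of the same route, was at 28.9 ± 1.4 and 24.9 ± 2.23 CPM and was not called (edgeR adjusted p = 0.0809).

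The regulators fell with the enzymes, except SCAP. INSIG1, which retains SREBPs in the endoplasmic reticulum, was at 374, 348 and 372 CPM in vehicle and 149, 125 and 109 CPM in the combination, 2.87-fold lower (log2 -1.52 ± 0.08; edgeR adjusted p = 1.41e-14). SREBF2 (chr22:41833079-41907308) went from 336, 318 and 330 to 178, 169 and 171 CPM, 1.91-fold lower (edgeR adjusted p = 6.44e-13), and SREBF1 fell 1.89-fold. Neither gene's groups overlapped. The sterol carrier STARD4 fell 1.66-fold and INSIG2 1.55-fold. SCAP, the escort of SREBPs, was at 75.6, 77.8 and 71.6 CPM in vehicle and 62.7, 72.4 and 75.1 CPM in the combination, overlapping groups with a log2 difference of -0.11 ± 0.08 (edgeR adjusted p = 0.32).

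All 6 tested fatty acid genes fell in THP-1, with the largest folds in 2 of the desaturases. FADS2, the delta-6 desaturase, went from 323, 296 and 306 to 103, 97.4 and 83.5 CPM, 3.28-fold lower (edgeR adjusted p = 8.88e-17). SCD (chr10:100347124-100364834) went from 994, 938 and 975 to 340, 323 and 265 CPM, 3.15-fold lower (log2 -1.66 ± 0.07; edgeR adjusted p = 2.49e-16). FASN (chr17:82078333-82098332) and FADS1, the delta-5 desaturase, fell 2.14-fold and 2.13-fold, while ACLY and the acetyl-CoA carboxylase ACACA, which act before FASN, each fell 1.30-fold. No 2 groups of these 6 genes overlapped between vehicle and combination.

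**Figure D3:**
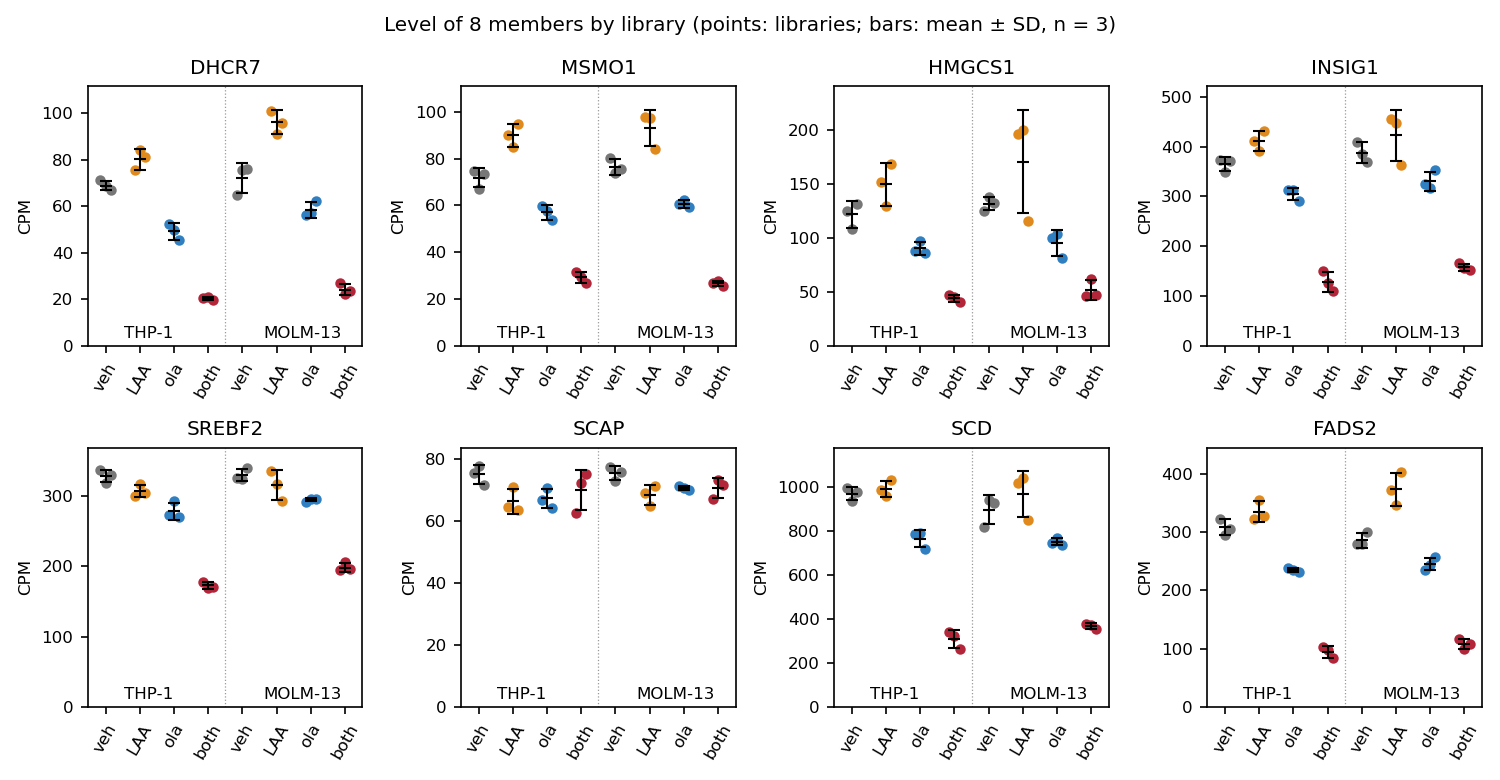
CPM of 8 members in every library, by treatment (veh vehicle, ola olaparib, both combination) within THP-1 (left of the dotted line) and the libraries labelled MOLM-13 (right); bars are mean ± SD of 3 libraries. DHCR7, MSMO1, HMGCS1, INSIG1, SREBF2, SCD and FADS2 are lowest in the combination in both lines, whereas the SCAP libraries of vehicle (71.6 to 77.8 CPM in THP-1) and combination (62.7 to 75.1 CPM) overlap.

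In the libraries labelled MOLM-13 the combination lowered 25 of 30 members and raised 0, with 7.35% of all genes tested called lower. The median log2 fold change was -0.793, against 0.00254 over all genes. The libraries of 26 members lay wholly below vehicle (17.4% of all genes tested), and per library the median shift was -0.766, -0.799 and -0.85. The members not called were PMVK, CYP51A1, SCAP, ACLY and ACACA. PMVK was called lower without vehicle replicate 2 (edgeR adjusted p = 0.0105). The call for INSIG2 (1.36-fold; edgeR adjusted p = 0.0406) was lost when any 1 of the 6 vehicle and combination libraries was left out (edgeR adjusted p from 0.0608 to 0.15).

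The genes with the largest falls there again included sterol and desaturase genes. DHCR7 went from 64.8, 75.6 and 75.8 CPM in vehicle to 26.9, 22.1 and 23.3 CPM, 2.99-fold lower (log2 -1.58 ± 0.10; edgeR adjusted p = 1.67e-09). MSMO1 went from 80.4, 73.9 and 75.5 to 27, 27.7 and 25.5 CPM, 2.87-fold lower, and FADS2 from 280, 279 and 301 to 116, 100 and 108 CPM, 2.65-fold lower. INSIG1 fell 2.45-fold, SCD 2.43-fold, SREBF1 1.75-fold and SREBF2 1.66-fold. These falls stand beside a drop of the 15-gene set to between 3.2 and 5.23 CPM, whose part in them was not tested.

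The calls in the 2 lines shared 24 members, 88.9% of the 27 in THP-1 and 96.0% of the 25 in MOLM-13. ACACA, ACLY and CYP51A1 were called only in THP-1 and NSDHL only in MOLM-13, but the line difference was called for none of these 4. Across the 30 members the log2 fold changes correlated at r = 0.88 (rho = 0.895), a description over genes that share libraries within each line. The line difference in the combination effect was called for 1 of 30 members, FASN, with 0.597% of all genes tested called in that direction. At an unadjusted p under 0.05 it was negative for 6 members and positive for 3. All 6 tested fatty acid genes had negative values (-0.404 to -0.199), 5 of them at that unadjusted level. The share of all genes at that level is not given here, and only FASN was called after adjustment. FASN went from 1410, 1370 and 1370 to 668, 656 and 626 CPM in THP-1, and from 1300, 1410 and 1540 to 878, 892 and 876 CPM in MOLM-13. THP-1 minus MOLM-13 was -0.40 ± 0.09 on the log2 scale (edgeR adjusted p = 0.0158), a call lost without MOLM-13 vehicle replicate 1 or THP-1 combination replicate 3 (edgeR adjusted p = 0.0547 and 0.0537). For SCD the difference was -0.36 ± 0.11 (edgeR adjusted p = 0.0794), and it was called without THP-1 combination replicate 1 (edgeR adjusted p = 0.0434).

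**Figure D4:**
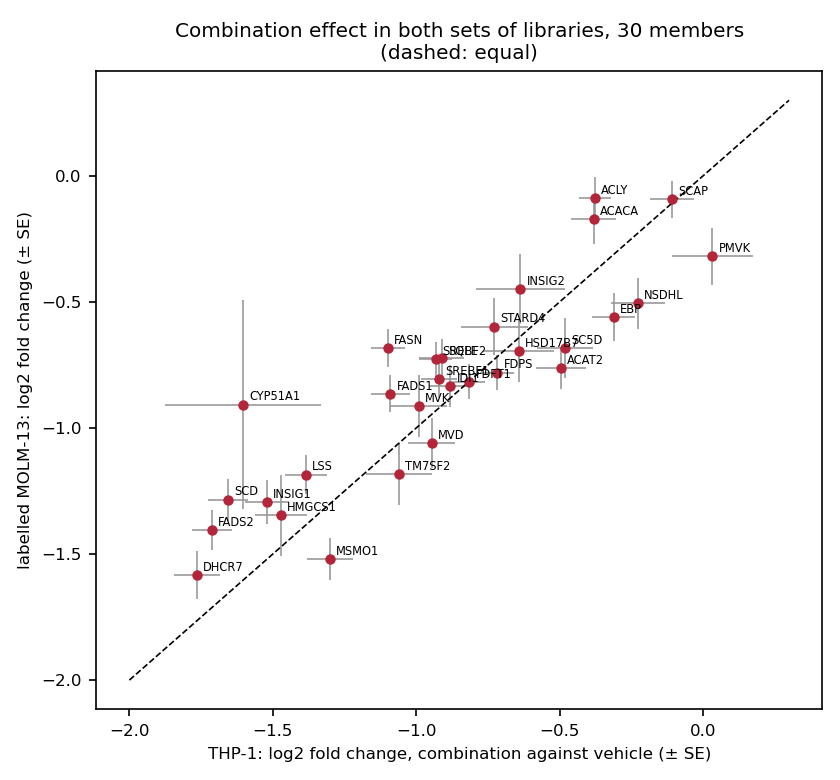
Log2 fold change of the combination against vehicle ± SE in THP-1 (x axis) and in the libraries labelled MOLM-13 (y axis) for 30 members; the dashed line marks equal values. FASN, SCD and FADS2 lie above the line (smaller falls in MOLM-13). SCAP lies near the origin, and PMVK is at log2 0.03 in THP-1 and -0.32 in MOLM-13.

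With LAA alone few members were called, all of them higher, and none of these calls held in every setting tried in either line. In THP-1, 24 of 30 members had a positive log2 fold change (median 0.14, against -0.00405 over all genes), and 2 were called higher and 0 lower, where 0.937% of all genes tested were called higher. ACAT2 rose 1.29-fold, from 96.3, 77.3 and 94 to 108, 114 and 124 CPM (edgeR adjusted p = 0.0236). MSMO1 rose 1.25-fold, from 74.7, 67.1 and 73.6 to 90.3, 84.9 and 94.9 CPM (edgeR adjusted p = 0.0237). Neither pair of groups overlapped. ACAT2 missed the threshold when vehicle replicate 2 or LAA replicate 3 was dropped (edgeR adjusted p = 0.254 and 0.189). MSMO1 missed it when any of the 6 libraries was dropped, LAA replicate 2 excepted (edgeR adjusted p from 0.0504 to 0.202). The 11 squalene and sterol ring genes all had positive values, while 4 of the 6 regulators had negative ones and none of the regulators was called.

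In the libraries labelled MOLM-13, LAA gave positive values for 27 of 30 members (median 0.262, against 0.00173 over all genes), and 6 were called higher and 0 lower (0.792% of all genes called higher). They were MVD (1.37-fold), ACAT2 (1.33-fold), DHCR7 (1.33-fold), FADS2 (1.31-fold), LSS (1.30-fold) and EBP (1.30-fold), with edgeR adjusted p from 0.01 to 0.0455. DHCR7 was at 64.8, 75.6 and 75.8 CPM in vehicle and 101, 91 and 95.6 CPM with LAA, groups that do not overlap. None of the 6 calls held without vehicle replicate 2. Without vehicle replicate 3 the count was 3, without LAA replicate 1 it was 1, and it reached 8 at most when another library was left out. HMGCS1 was at 197, 200 and 116 CPM with LAA, where replicate 3 lay under the lowest vehicle library (125 CPM). HMGCS1 was called higher without that replicate (edgeR adjusted p = 0.00676). The 15-gene set was lower in these LAA libraries than in vehicle, and its part in these calls was not tested. ACAT2 was the only member called in both lines, 50% of the 2 and 16.7% of the 6, and no line difference in the LAA effect was called among members (2 at an unadjusted p under 0.05; 0 by DESeq2; background 0.0117% lower and 0.129% higher).

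Olaparib alone lowered 6 of 30 members in THP-1 and raised 0, where 0.0857% of all genes tested were called lower. Values were negative for 28 of 30, with a median of -0.213 against -0.000416 over all genes. DHCR7 was at 71, 68.5 and 66.9 CPM in vehicle and 52.4, 49.8 and 45.2 CPM with olaparib, 1.40-fold lower without overlap (log2 -0.49 ± 0.08; edgeR adjusted p = 0.0024). HMGCS1 (1.34-fold), FADS2 (1.31-fold), LSS (1.28-fold), SCD (1.26-fold) and SREBF1 (1.21-fold; edgeR adjusted p = 0.0476) were the other 5. The DHCR7 call held in all 13 other settings. The FADS2 call held without any 1 library, and the other 4 were each lost without vehicle replicate 3 or olaparib replicate 1, among others, so that the count fell to between 2 and 3 without vehicle replicate 1, 2 or 3 or olaparib replicate 1 or 3.

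In the libraries labelled MOLM-13, olaparib had 0 of 30 members called in either direction by edgeR, and 0% of all genes tested were called lower and 0.00619% higher. At an unadjusted p under 0.05, 19 members were lower and 0 higher, and DESeq2 called 3 lower (MVD, FDPS and MSMO1). The share of all genes under either of these rules is not given here. The median was -0.234, against 0.00528 over all genes, and the libraries of 19 members lay wholly below vehicle (7.39% of all genes tested). MSMO1 was at 80.4, 73.9 and 75.5 CPM in vehicle and 60.7, 62.5 and 59.2 CPM with olaparib (log2 -0.33 ± 0.08), groups that do not overlap although the gene was not called by edgeR (adjusted p = 0.25). The line difference in the olaparib effect was called for 0 members, with 1 at an unadjusted p under 0.05 and 0 by DESeq2 (background 0.00585% lower and 0% higher), and it ran from -0.231 to 0.23 on the log2 scale.

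The combination was also set against each compound alone. Against LAA it lowered 28 of 30 members in THP-1 (10.2% of all genes tested; median -1.03) and 27 of 30 in MOLM-13 (8.25%; median -1.04), the comparison with the nearest levels of the 15-gene set. DHCR7 went from 101, 91 and 95.6 CPM with LAA to 26.9, 22.1 and 23.3 CPM with both in MOLM-13. PMVK and SCAP were the 2 not called in THP-1. INSIG2, SCAP and ACACA were the 3 not called in MOLM-13. In THP-1 the calls for INSIG2 and ACACA were each lost without LAA replicate 3 (edgeR adjusted p = 0.144 and 0.08), INSIG2 also without combination replicate 3 (edgeR adjusted p = 0.0597) and ACACA without combination replicate 2 (edgeR adjusted p = 0.0585). The CYP51A1 call in MOLM-13 was lost without any 1 of these 6 libraries, LAA replicate 3 excepted (edgeR adjusted p from 0.0569 to 0.135). INSIG2 was called there without LAA replicate 3 (edgeR adjusted p = 0.0424).

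Against olaparib the combination lowered 24 of 30 members in THP-1 (11.9% of all genes tested; median -0.711) and 22 of 30 in MOLM-13 (4.59%; median -0.582). In THP-1 PMVK, NSDHL, EBP, INSIG2, SCAP and ACACA were not called, and in MOLM-13 the same 6 with CYP51A1 and ACLY. PMVK was called higher in THP-1 without olaparib replicate 3 (edgeR adjusted p = 0.00822), its values with olaparib being 47.5, 32.4 and 59.3 CPM. Without 1 library EBP (olaparib replicate 2), INSIG2 (combination replicate 2) or ACACA (olaparib replicate 1) was called lower in THP-1 (edgeR adjusted p = 0.0492, 0.0493 and 0.0486). ACAT2 was lost there without olaparib replicate 1 or combination replicate 2 (edgeR adjusted p = 0.0878 and 0.182). In MOLM-13 SC5D was lost without combination replicate 3 (edgeR adjusted p = 0.0578), and STARD4 without any 1 of these 6 libraries, olaparib replicate 3 excepted (edgeR adjusted p from 0.0945 to 0.168).

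The interaction asks whether the combination differs from the sum of the single effects on the log2 scale. It was called negative for 24 of 30 members in THP-1 (3.54% of all genes tested; median -0.856, against -0.00456 over all genes) and positive for 0. In MOLM-13 it was negative for 23 of 30 (1.32%; median -0.874, against -0.00549) and positive for 0. The sum of the 2 single effects had a median of -0.0923 in THP-1 and 0.0407 in MOLM-13, and the combination lay below the sum for 28 and 29 of 30 members. DHCR7 had an interaction of -1.50 ± 0.11 in THP-1 (edgeR adjusted p = 3.07e-10) and -1.70 ± 0.13 in MOLM-13 (edgeR adjusted p = 3.03e-07). For FADS2 it was -1.44 ± 0.10 (edgeR adjusted p = 4.62e-11) and -1.57 ± 0.11 (edgeR adjusted p = 7.6e-08).

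Among the regulators, SREBF2 had an interaction of -0.60 ± 0.08 in THP-1 (edgeR adjusted p = 8.8e-06) and -0.51 ± 0.10 in MOLM-13 (edgeR adjusted p = 0.00661), and INSIG1 had -1.43 ± 0.11 and -1.19 ± 0.12. PMVK, NSDHL, EBP, INSIG2, SCAP and ACACA were not called in THP-1. In MOLM-13 PMVK, CYP51A1, INSIG2, SCAP, STARD4, ACLY and ACACA were not called. PMVK was called positive in THP-1 without olaparib replicate 3 (edgeR adjusted p = 0.0157), and EBP negative without olaparib replicate 2 (edgeR adjusted p = 0.0286). Calls lost without 1 library were those of CYP51A1 (8 of the 12 libraries, edgeR adjusted p from 0.0655 to 0.114) and HSD17B7 (LAA replicate 3, olaparib replicate 2 or combination replicate 1, edgeR adjusted p from 0.0536 to 0.0674) in THP-1. In MOLM-13 they were those of NSDHL (8 of 12, edgeR adjusted p from 0.0732 to 0.138) and SC5D (10 of 12, edgeR adjusted p from 0.0557 to 0.151). STARD4 and ACLY were called there without LAA replicate 3 (edgeR adjusted p = 0.0235 and 0.0268).

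**Figure D5:**
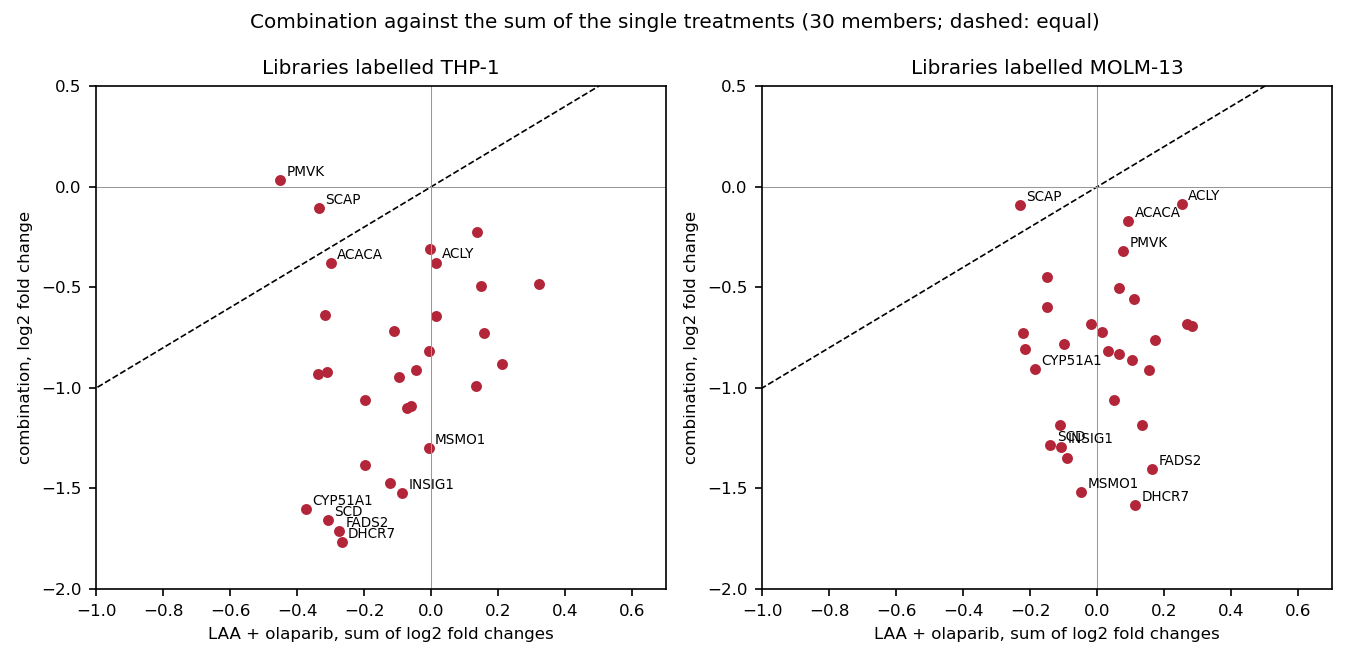
Log2 fold change of the combination against vehicle (y axis) and the sum of the log2 fold changes of LAA and olaparib (x axis) for 30 members, in THP-1 (left) and in the libraries labelled MOLM-13 (right); the dashed line marks equal values. The combination lies below the line for 28 and 29 of 30 members, with SCAP above it in both panels and PMVK in THP-1.

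Another 36 genes tied to the SREBP pathway, among them its proteases, acyl-CoA synthetases, elongases and lipid carriers, were called in both directions. With the combination in THP-1 12 of 36 fell and 6 rose (median -0.0707), where 13.5% of all genes tested were called lower and 13.5% higher. In MOLM-13 7 fell and 3 rose (median -0.108), where 7.35% of all genes were called lower and 4.85% higher. The share of the 36 that rose was 16.7% in THP-1 and 8.33% in MOLM-13. ACSS2, which makes acetyl-CoA from acetate, fell 1.65-fold in each line, and the mitochondrial citrate carrier SLC25A1 fell 1.44-fold and 1.49-fold. ACSL1, a long-chain acyl-CoA synthetase, rose 2.61-fold in THP-1 (edgeR adjusted p = 7.07e-13) and 1.29-fold in MOLM-13 (edgeR adjusted p = 0.0357). The MOLM-13 rise of ACSL1 was not called by edgeR without any 1 of the 6 libraries compared (adjusted p = 0.0541 to 0.144) nor by limma on FPKM, and the count of genes that rose there was then 1 instead of 3. The count that fell there was 4 without MOLM-13 vehicle replicate 1. The ACSL1 difference between the lines was called (log2 1.03 ± 0.14; edgeR adjusted p = 2.36e-05), and a change of cell make-up cannot be told apart from it. With LAA alone 1 of the 36 (2.78%) was called in each line, ACSS2, 1.30-fold and 1.47-fold higher. Of all genes tested, 0.937% in THP-1 and 0.792% in MOLM-13 were called higher with LAA. In THP-1 the ACSS2 call was lost without vehicle replicate 2 (edgeR adjusted p = 0.13) or LAA replicate 3 (edgeR adjusted p = 0.053), and in MOLM-13 the count was 3 without LAA replicate 2.

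Of 16 genes of fatty acid oxidation, the route that breaks fatty acids down, 5 fell with the combination in THP-1 (median -0.0603), where 13.5% of all genes were called lower. In MOLM-13 3 fell (median -0.103; 7.35% of all genes called lower), or 1 without MOLM-13 vehicle replicate 1, combination replicate 1 or combination replicate 2. Genes of this list called higher by edgeR numbered 0 in both lines, 0 also at an unadjusted p under 0.05 and 0 with DESeq2. HADHB of the trifunctional protein fell 1.31-fold and the carnitine transferase CPT1A 1.29-fold in THP-1. Among 11 tested genes of the sterol-sensing receptor LXR and cholesterol efflux, 3 fell and 2 rose in THP-1 (13.5% of all genes in each direction), where MYLIP, an LXR target that marks lipoprotein receptors for breakdown, fell 1.91-fold and the phospholipid carrier PLTP rose 1.35-fold. Without THP-1 vehicle replicate 2 these counts were 1 and 1, and without combination replicate 1 the count that rose was 1. In MOLM-13 4 of 10 fell (7.35% of all genes) and 0 rose, with 1 higher at an unadjusted p under 0.05 and 0 with DESeq2. The count that fell was 2 without MOLM-13 vehicle replicate 3, combination replicate 2 or combination replicate 3. PLTP was at log2 0.20 there (edgeR adjusted p = 0.226). With LAA alone PLTP was already higher in THP-1, at log2 0.44 (edgeR adjusted p = 0.0016) against 0.43 with the combination. In MOLM-13 LAA alone gave log2 0.50 (edgeR adjusted p = 0.0117), a call lost without vehicle replicate 3 (edgeR adjusted p = 0.0645).

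Some members share sequence with other genes, and the kit did not mark the strand. FADS1 and FADS2 overlap on opposite strands over 29694 bases, and FADS2 also overlaps FEN1 on its own strand over 4265 bases. The end of ACAT2 overlaps TCP1 (566 CPM on average, against 89.7 for ACAT2) over 558 bases, and MVK overlaps MMAB over 620. CYP51A1 lies inside another gene model on its strand over 22645 bases that has 0 counts, and HSD17B7 has a copy, HSD17B7P2, at 2.29 CPM. The values of these members are uncertain to the extent that the authors' counting split or dropped such reads.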

How the data were processed

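PolyA RNA was extracted on columns and made into libraries with a kit that does not mark strand, per the labels' protocols. Per the submitters' processing notes the tools were HISAT2, SAMtools and DESeq2 with hg38. Which counter, strand setting and annotation the authors used is not given in the sources used here. Deposited counts are whole numbers per gene with no normalization. Deposited FPKM values equal the count over gene length and over 1 constant for each library, which is not its column total. Counts were tested with edgeR 4.0.16 in R 4.3.3: filterByExpr at default settings, TMM scaling, group means and the quasi-likelihood F test, with Benjamini-Hochberg adjustment over all genes tested and a threshold of 0.05. Each line was fitted on its own 12 libraries, and line differences and the vehicle comparison on all 24, in 16 comparisons. CPM are scaled by TMM. Levels between genes use FPKM. Alternatives were DESeq2 size factors, library totals, no filter, DESeq2 1.42.0, limma 3.58.1 on log2(FPKM + 1) and log2(FPKM + 0.1), a replicate block and leaving out each library. The edgeR fit was tested on data simulated for the THP-1 combination against vehicle. All 31 members are named, and other lists give at most 3 called genes per comparison. The members and lists were chosen with earlier results of these data known. Promoters were matched by symbol to RefSeq.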

Additional observations from a re-analysis of the deposited data

Results flagged for a closer look

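The effect of the combination on FASN differed between the 2 lines by the test of the difference itself. THP-1 minus MOLM-13 was -0.4042 on the log2 scale (edgeR adjusted p = 0.0158), with a 2.14-fold fall in THP-1 and a 1.61-fold fall in the libraries labelled MOLM-13. All 3 combination libraries were below all 3 vehicle libraries in both lines. The FASN line difference was not called without MOLM-13 vehicle replicate 1 or THP-1 combination replicate 3 (edgeR adjusted p = 0.0547 and 0.0537). The effect of the combination on ACSL1 also differed between the lines by that test, with THP-1 minus MOLM-13 at 1.026 on the log2 scale (edgeR adjusted p = 2.36e-05), a 2.61-fold rise in THP-1 and a 1.29-fold rise in the libraries labelled MOLM-13. The MOLM-13 rise was not called without any 1 of the libraries compared.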

How the results depend on the processing

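No member's call changed direction under any setting tried. The combination against vehicle kept all 27 called members in THP-1 in each of 13 settings and 24 of 25 in MOLM-13. Of called members, 26 of 28 and 23 of 24 kept the call in every setting in THP-1 when the combination was set against LAA and olaparib in turn, and 22 of 24 in the interaction. In MOLM-13 these were 26 of 27, 20 of 22 and 20 of 23. The single treatments depended on the tool. Members higher with LAA in THP-1 numbered 2 as reported, 4 with no filter, 7 with DESeq2, 0 with limma on log2(FPKM + 1) or log2(FPKM + 0.1), and 0 to 4 without 1 library. In MOLM-13 they numbered 6, 13 with DESeq2 and 0 to 8 without 1 library. Members lower with olaparib in THP-1 numbered 6, 11 with DESeq2, 1 with limma at either pseudocount and 2 to 6 without 1 library, and in MOLM-13 0, 3 with no filter and 3 with DESeq2. In THP-1 members called higher in the combination against olaparib and in the interaction numbered 0, 1 each with no filter, and 0 to 1 without 1 library. Members with a lower combination effect in THP-1 than in MOLM-13 numbered 1, 2 with no filter, 2 with DESeq2 and 0 to 2 without 1 library. Members lower in THP-1 vehicle than in MOLM-13 vehicle numbered 0, and 0 to 1 without 1 library. The same settings were applied to the other lists after the data were seen. With the combination in THP-1, SREBP pathway genes lower numbered 8 to 14 and higher 4 to 7, and in MOLM-13 4 to 10 and 1 to 3. The cause was not tested. With the replicate number as a block, 27 members were lower with the combination in THP-1 and 25 in MOLM-13, and 4 instead of 6 with olaparib in THP-1. The labels do not say that a number marks a shared batch, and same-numbered samples correlated at -0.263 to 0.228 after group means were removed, so the numbers were not taken as pairs. ELOVL6 had 0 to 10 counts per library, and CYP51A1 (19 to 174 counts) had the largest standard errors. CYP51A1 lies inside another gene model on its strand. Whether depth or the authors' counting lowered its counts was not tested.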
